A study of Mus musculus with 7 samples.

Results

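The intestinal stem cell genes are 10 genes taken by name, *Lgr5*, *Ascl2*, *Olfm4*, *Smoc2*, *Rgmb*, *Sox9*, *Ephb2*, *Ephb3*, *Cd44* and *Prom1*, out of 43346 genes in the count table. Each matched 1 Ensembl identifier, and all 10 had enough counts to be tested among 15810 genes. The rule used no measured value. RNA was measured in whole colon tumors of 7 BM chimeras with colitis-associated cancer (CAC), 3 carrying Dnmt3a(+/+) BM and 4 carrying Dnmt3a(+/-) BM. Donors of both grafts were C57BL6/J mice with the Mx1-Cre transgene, whose interferon-responsive promoter was induced with poly(I:C), so that 1 *Dnmt3a* allele was deleted in the blood-forming cells of the (+/-) donors. Recipients of both grafts were lethally irradiated mice with wild-type *Dnmt3a*, given in the labels as C57BL6/J mice 8 weeks old and in the methods of the study as younger mice of the CD45.1 congenic strain, whose blood cells can be told from CD45.2 donor cells. All recipients then received 1 injection of the carcinogen azoxymethane (AOM) at 10 mg/kg, then the colitis-inducing agent dextran sulfate sodium (DSS) at 3% in 3 cycles, with 1 week on and 2 weeks off. The deletion is thus placed in cells that derive from the graft, and the tumor epithelium belongs to a wild-type host.

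The colon epithelium is renewed from stem cells at the base of each crypt, a zone held by Wnt and R-spondin signals from neighboring cells. Lgr5 is a receptor for R-spondins that marks cycling crypt base cells, and Ascl2 is a transcription factor that acts with β-catenin to maintain them. Adenomas and carcinomas with active Wnt signaling often express these genes, and the 10 genes are widely used to describe the crypt base program. They differ in how specific they are, since *Cd44*, *Sox9* and *Prom1* are also expressed by transit-amplifying cells or by cells outside the epithelium.

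The sample labels carry the prefixes BMT18 and BMT8, which are read here as 2 transplantation experiments. BMT18 holds (+/+) tumors 1 and 2 and (+/-) tumors 1 and 2, and BMT8 holds (+/+) tumor 3 and (+/-) tumors 3 and 4. The experiments also differed in sex-linked transcripts. *Xist*, transcribed from the inactive X chromosome, was at 175 to 265 CPM (counts scaled to the library size) in the 3 BMT8 tumors and at or below 0.20 CPM in the 4 BMT18 tumors, while the Y-linked *Ddx3y* was at 29.9 to 50.6 CPM in BMT18 and at or below 1.47 CPM in BMT8. Experiment and sex therefore cannot be told apart in these tumors. Total counts were between 38472738 and 64314999. *Dnmt3a* itself, which whole tumors express in host and graft cells alike, was at 20.2 to 24.3 CPM in the (+/+) tumors and at 22.0 to 43.0 CPM in the (+/-) tumors, so it does not check the labels. Epithelium was present in each sample, since the 9 epithelial markers summed to between 9868 and 33320 CPM in each tumor. These general markers cannot tell tumor from other colon epithelium. (+/+) tumor 3 stood apart for smooth muscle markers, whose sum was 22.6 CPM against 243 to 1167 CPM in the other tumors, and (+/-) tumor 2 for endothelial markers, 139 CPM against 16.1 to 68.0 CPM.

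Genome positions follow the GENCODE M21 annotation of GRCm38, and all 10 genes are protein coding. *Lgr5* lies at chr10:115450311-115587780 on the minus strand, *Ascl2* at chr7:142966829-142969264 (minus) and *Olfm4* at chr14:79984081-80023139 (plus). *Smoc2* and *Rgmb* share a chromosome, at chr17:14279506-14404790 (plus) and chr17:15803188-15831039 (minus). *Sox9* is at chr11:112782224-112787760 (plus), *Cd44* at chr2:102811141-102901665 (minus) and *Prom1* at chr5:43993620-44102032 (minus). The receptor genes *Ephb2* and *Ephb3* are at chr4:136647539-136835988 (minus) and chr16:21204755-21223305 (plus). A second annotated gene overlaps *Lgr5*, *Olfm4*, *Smoc2*, *Cd44* and *Prom1*. The library kit was directional, but the sources used here do not state whether counting used strand, so reads of an overlapping gene could have been counted with these 5.

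Levels of different genes are compared per kilobase of exon, as TMM-scaled CPM per kb averaged over the 7 tumors. *Cd44* (28.9 ± 8.83, SD, n = 7) and *Prom1* (27.9 ± 8.87) were highest, followed by *Sox9* (20.5 ± 9.26), *Smoc2* (11.0 ± 4.97), *Ascl2* (9.79 ± 4.10), *Ephb3* (9.13 ± 1.11), *Ephb2* (8.20 ± 2.21), *Rgmb* (2.23 ± 0.45), *Lgr5* (1.90 ± 1.06) and *Olfm4* (0.967 ± 1.22). The ranges of neighbors in this order overlapped in every case except *Ephb2* (5.06 to 12.3) against *Rgmb* (1.69 to 2.82). *Lgr5* was thus among the least abundant members per length, at or above 35.7% of the genes tested on this scale. The members also differed in how much they varied between tumors: the highest tumor was 132-fold above the lowest for *Olfm4*, 4.39-fold for *Lgr5* and 4.11-fold for *Smoc2*, but 1.67-fold for *Rgmb* and 1.41-fold for *Ephb3*. (+/+) tumor 1 was the lowest tumor for 5 of the 10 genes, and (+/-) tumor 2 the highest for 3.

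**Figure D1:**
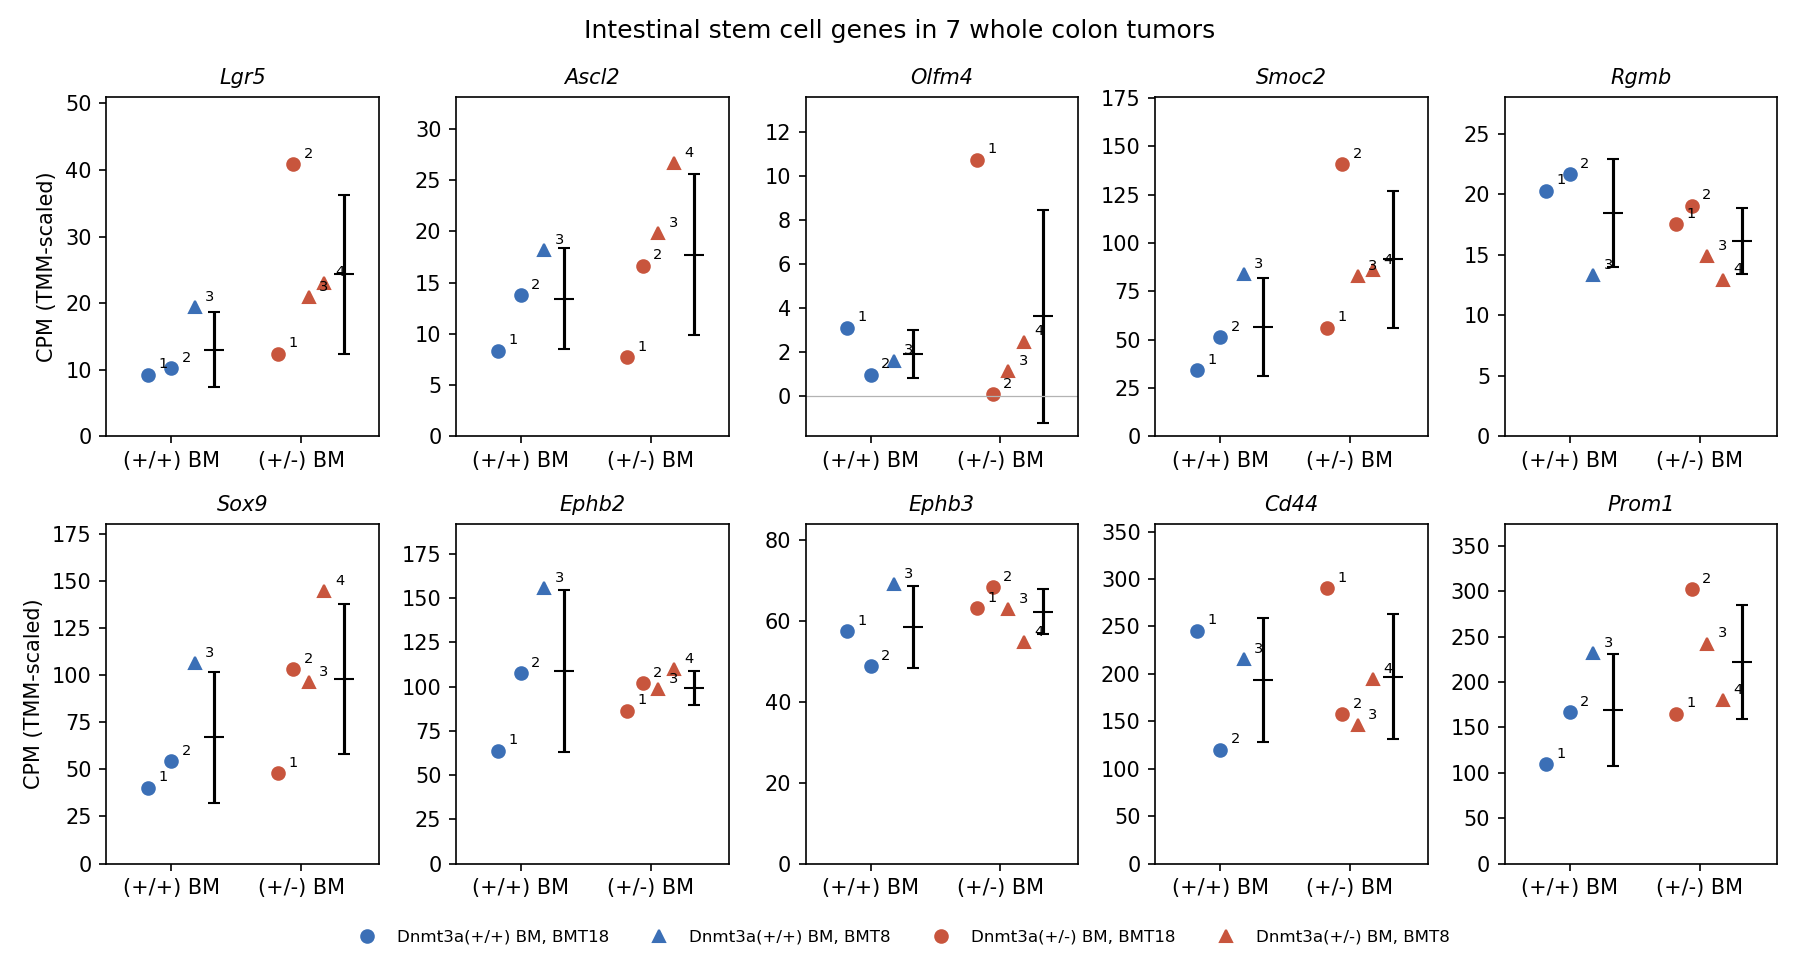
TMM-scaled CPM (vertical axes, starting at 0, or below it for *Olfm4*) of the 10 intestinal stem cell genes in each tumor, by genotype of the BM graft. Circles (BMT18) and triangles (BMT8) mark the experiments, numbers the replicates, and black bars the mean ± SD of 3 or 4 tumors; the groups overlap for all 10 genes, and *Lgr5* and *Smoc2* are highest in (+/-) tumor 2.

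The main comparison asked whether the genotype of the BM graft changed the level of these genes in the tumor. No stem cell gene passed the test: edgeR's quasi-likelihood test called 0 of the 10 (adjusted p under 0.05 with a log2 fold change beyond 1 in either direction), against 0% of all genes, with adjusted p from 0.492 to 0.988 for the 10. DESeq2 also called 0 of the 10, against 1.90% of all genes. At an unadjusted p under 0.05, edgeR counted 0 of the 10 against 11.0% of all genes, and DESeq2 counted 1, *Lgr5*, against 13.4%. The groups overlapped for all 10, while 12.4% of all genes did not overlap (6.12% higher and 6.32% lower with (+/-) BM). Of the 10 log2 fold changes, 8 were above 0 (50.2% of all genes), with a median of 0.40 against 0.0025 for all genes. That median was 0.19 without (+/+) tumor 1, 0.22 without (+/-) tumor 4 and 0.68 without (+/+) tumor 3, and 6 of the 10 were above 0 without (+/+) tumor 2 or without (+/-) tumor 1. In bulk tumors, fewer cells of a type and less RNA per cell cannot be told apart. Leaving out (+/+) tumor 3 raised the count at an unadjusted p under 0.05 to 3 (*Lgr5*, *Smoc2* and *Sox9*; 12.2% of all genes), and leaving out (+/-) tumor 1 raised it to 2 (*Lgr5* and *Smoc2*; 13.7%), with 0 called in each case.

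*Lgr5*, the R-spondin receptor, was at 9.30, 10.2 and 19.5 CPM in (+/+) tumors 1 to 3 and at 12.4, 40.8, 20.9 and 23.1 CPM in (+/-) tumors 1 to 4. Of the (+/-) tumors, 3 lay above all (+/+) tumors, tumor 2 by the widest margin, and tumor 1 lay inside the (+/+) range. The means were 13.0 ± 5.61 (SD, n = 3) and 24.3 ± 11.9 (SD, n = 4), a log2 fold change of 0.91 (standard error, SE, of 0.44, 95% interval -0.12 to 1.93, edgeR adjusted p = 0.492). It was 0.56 without (+/-) tumor 2 and 1.32 without (+/+) tumor 3. R-spondins, the ligands, were scarce: *Rspo1*, *Rspo2* and *Rspo4* did not reach 0.30 CPM in any tumor and were too low to test, and *Rspo3* was at 0.153 to 0.860 CPM in the (+/+) and 0.346 to 1.08 CPM in the (+/-) tumors.

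*Smoc2*, which encodes a secreted calcium-binding matrix protein enriched in Lgr5+ cells, was at 34.3, 51.2 and 84.0 CPM in (+/+) tumors 1 to 3 and at 56.3, 141, 83.1 and 85.9 CPM in (+/-) tumors 1 to 4. Its order across tumors was close to that of *Lgr5*, again with (+/-) tumor 2 highest and (+/+) tumor 1 lowest. Its log2 fold change was 0.70 ± 0.38 (SE, 95% interval -0.20 to 1.59, edgeR adjusted p = 0.534), and 0.43 to 1.10 with each tumor left out in turn. *Prom1*, a membrane protein of cell protrusions, was at 109, 167 and 232 CPM in the (+/+) tumors and at 165, 303, 242 and 180 CPM in the (+/-) tumors. (+/-) tumor 2 was highest here too, but (+/+) tumor 3 lay above (+/-) tumors 1 and 4. The log2 fold change of *Prom1* was 0.39 (SE 0.31, edgeR adjusted p = 0.668), and 0.15 without (+/+) tumor 1, 0.24 without (+/-) tumor 2 and 0.69 without (+/+) tumor 3.

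The transcription factor genes peaked in another tumor. *Ascl2* was at 8.38, 13.8 and 18.17 CPM in (+/+) tumors 1 to 3 and at 7.71, 16.7, 19.8 and 26.7 CPM in (+/-) tumors 1 to 4, and *Sox9*, which encodes a factor of crypt progenitors, at 40.2, 54.3 and 106 CPM and at 47.8, 103, 96.1 and 145 CPM. Both were highest in (+/-) tumor 4 and lower in tumor 1 of each group than in the other tumors. Their log2 fold changes were 0.40 (SE 0.43, edgeR adjusted p = 0.777) for *Ascl2* and 0.55 (SE 0.44, adjusted p = 0.668) for *Sox9*. *Ascl2* was at 0.13 without (+/-) tumor 4, 0.15 without (+/+) tumor 1 and 0.67 without (+/+) tumor 3 or (+/-) tumor 1, and *Sox9* at 0.28 without (+/+) tumor 1, 0.30 without (+/-) tumor 4 and 1.05 without (+/+) tumor 3.

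EphB receptors read B-type ephrins on neighboring cells and keep crypt base cells in place. *Ephb2* was at 63.8, 108 and 156 CPM in the (+/+) tumors and at 86.4, 102, 98.4 and 110 CPM in the (+/-) tumors, so that all (+/-) tumors lay inside the (+/+) range. Its log2 fold change was -0.14 ± 0.28 (SE, edgeR adjusted p = 0.900), and 0.21 without (+/+) tumor 3. *Ephb3* was at 57.4, 48.9 and 69.0 CPM and at 63.2, 68.4, 62.8 and 54.8 CPM, the narrowest spread of the 10 genes. Its log2 fold change was 0.09 with a 95% interval of -0.27 to 0.46 (edgeR adjusted p = 0.875). Of the other 6 EphB and ephrin-B genes tested, 3 were above 0 and 3 below, 0 at an unadjusted p under 0.05, with a median of 0.0017. *Ephb4* was the highest at 0.40 and *Efnb1* the lowest at -0.47.

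*Rgmb*, a membrane-anchored co-receptor for bone morphogenetic proteins (BMPs), was at 20.3, 21.7 and 13.3 CPM in the (+/+) tumors and at 17.5, 19.1, 14.9 and 13.0 CPM in the (+/-) tumors. The 3 lowest values were the 3 tumors of BMT8. Its log2 fold change was -0.20 ± 0.24 (SE, edgeR adjusted p = 0.808), and -0.066 without (+/+) tumor 2 and -0.38 without (+/+) tumor 3. Among 5 genes listed as partners of Rgmb in BMP signaling, *Bmp4* was the only one at an unadjusted p under 0.05 (edgeR, 5.83% of all genes were higher at that p). Its log2 fold change was 1.75, with 21.7 CPM in (+/-) tumor 2 against 3.74 to 6.95 CPM in the other (+/-) tumors and 2.34 to 3.27 CPM in the (+/+) tumors. *Bmp2* was the lowest at -0.59.

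*Cd44*, a receptor for hyaluronan that is also expressed by leukocytes and stromal cells, was at 246, 120 and 215 CPM in (+/+) tumors 1 to 3 and at 290, 157, 146 and 195 CPM in (+/-) tumors 1 to 4. Tumor 1 was the highest of each group. The means were 194 ± 65.5 (SD, n = 3) and 197 ± 65.5 (SD, n = 4), with a log2 fold change of 0.03 (95% interval -0.72 to 0.77, edgeR adjusted p = 0.988).

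*Olfm4* encodes a secreted glycoprotein that marks crypt base cells in the human intestine and is also stored in granules of neutrophils. It was at 3.09, 0.952 and 1.59 CPM in the (+/+) tumors and at 10.8, 0.081, 1.12 and 2.46 CPM in the (+/-) tumors, from as few as 4 to 431 counts. (+/-) tumor 2, highest for *Lgr5*, was lowest for *Olfm4*. Its log2 fold change of 0.94 had a 95% interval of -1.93 to 3.81 (edgeR adjusted p = 0.824) and was -0.63 without (+/-) tumor 1.

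**Figure D2:**
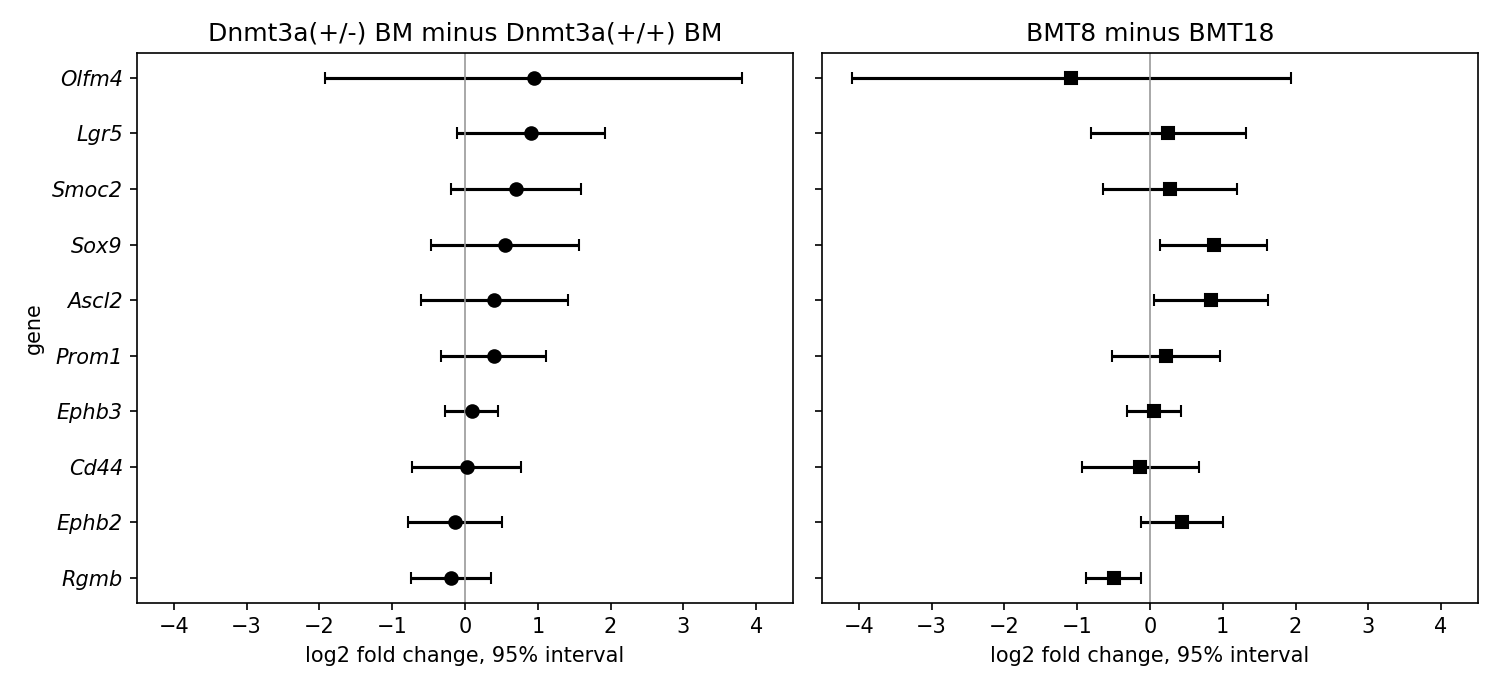
Log2 fold change (horizontal axis) with its 95% interval for each of the 10 genes, from edgeR, between the graft genotypes (left) and between the experiments with the genotype as covariate (right). On the left all 10 intervals include 0, and on the right those of *Ascl2*, *Sox9* and *Rgmb* do not.

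Between the experiments, with the graft genotype as a covariate, edgeR called 0 of the 10 genes against 0.00633% of all genes, 1 gene, *Xist*. *Xist* was named after its values were seen. At an unadjusted p under 0.05, 3 of the 10 were counted against 19.4% of all genes, 2 higher in BMT8 (10.8% of all genes) and 1 lower (8.59%). DESeq2 called 0 of the 10 against 2.92% of all genes, and 7 of the 10 log2 fold changes were above 0 against 46.2% of all genes. *Ascl2* averaged 11.6 CPM in BMT18 and 21.6 CPM in BMT8, with a log2 fold change of 0.84 ± 0.33 (SE, edgeR adjusted p = 0.236). *Sox9* averaged 61.3 and 116 CPM, with a log2 fold change of 0.88 ± 0.31 (SE, edgeR adjusted p = 0.216). *Rgmb* went the other way, from 19.6 to 13.7 CPM, with a log2 fold change of -0.50 ± 0.16 (SE, edgeR adjusted p = 0.201), and its 4 BMT18 tumors, at 17.5 CPM and above, all lay above its 3 BMT8 tumors, at 14.9 CPM and below. The other 7 genes had intervals that included 0. The 9 epithelial markers moved with the experiment as well: 7 of them were higher in BMT8 at an unadjusted p under 0.05, with a median of 0.66, and the part of that in the values of *Ascl2* and *Sox9* was not tested.

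A difference in the effect of the graft between the experiments did not pass the interaction test for any member, with 0 of 10 genes at an adjusted p under 0.05 (0% of all genes) and 0 at an unadjusted p under 0.05 (4.62% of all genes). That test has 1 (+/+) tumor in BMT8. With the experiment as a covariate, the log2 fold change of *Lgr5* was 0.92 (edgeR adjusted p = 0.387), of *Smoc2* 0.71 and of *Ascl2* 0.22, and 0 of the 10 were at an unadjusted p under 0.05, against 14.7% of all genes. In BMT18 alone, with 2 tumors a group, 4 of the 10 genes did not overlap (*Lgr5*, *Smoc2* and *Ephb3* higher and *Rgmb* lower in the (+/-) tumors), a share below the 49.5% of all genes that did not overlap there. The log2 fold change of *Lgr5* was 1.47 (SE 0.64, edgeR adjusted p = 0.492). In BMT8, *Lgr5* was at 19.5 CPM in the (+/+) tumor and at 20.9 and 23.1 CPM in the (+/-) tumors, and *Smoc2* at 84.0 CPM against 83.1 and 85.9 CPM, a difference with no replicate on the (+/+) side.

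Which members varied together was examined over the 7 tumors on log2 CPM, with exact permutation tests (two-sided) adjusted over 45 pairs. *Lgr5* and *Smoc2* followed each other most closely (Pearson's r = 0.974, exact permutation p = 4e-04, adjusted p = 0.018). Spearman's rho was 0.964 (exact permutation p = 0.0028, adjusted p = 0.126), r was 0.988 without the 2 tumors farthest from the median of *Lgr5*, and 0.970 on values centred within each experiment. *Ascl2* and *Sox9* were the other pair past an adjusted p of 0.05 (r = 0.940, exact permutation p = 0.0022, adjusted p = 0.0495), with a rho of 0.857 (exact permutation p = 0.0238, adjusted p = 0.179), 0.890 without the farthest tumors and 0.855 within experiments. *Prom1* correlated with *Smoc2* at r = 0.944 (exact permutation p = 0.0048, adjusted p = 0.072, and 0.745 without the farthest tumors). The 10 genes did not form a single group, since r was above 0 in 23 of the 45 pairs. *Olfm4* correlated negatively with *Lgr5* (r = -0.68) and with *Prom1* (r = -0.69), and *Rgmb* with *Sox9* (r = -0.77, and -0.27 within experiments). None of these 3 passed the adjustment (exact permutation test, adjusted p = 0.281 for each).

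**Figure D3:**
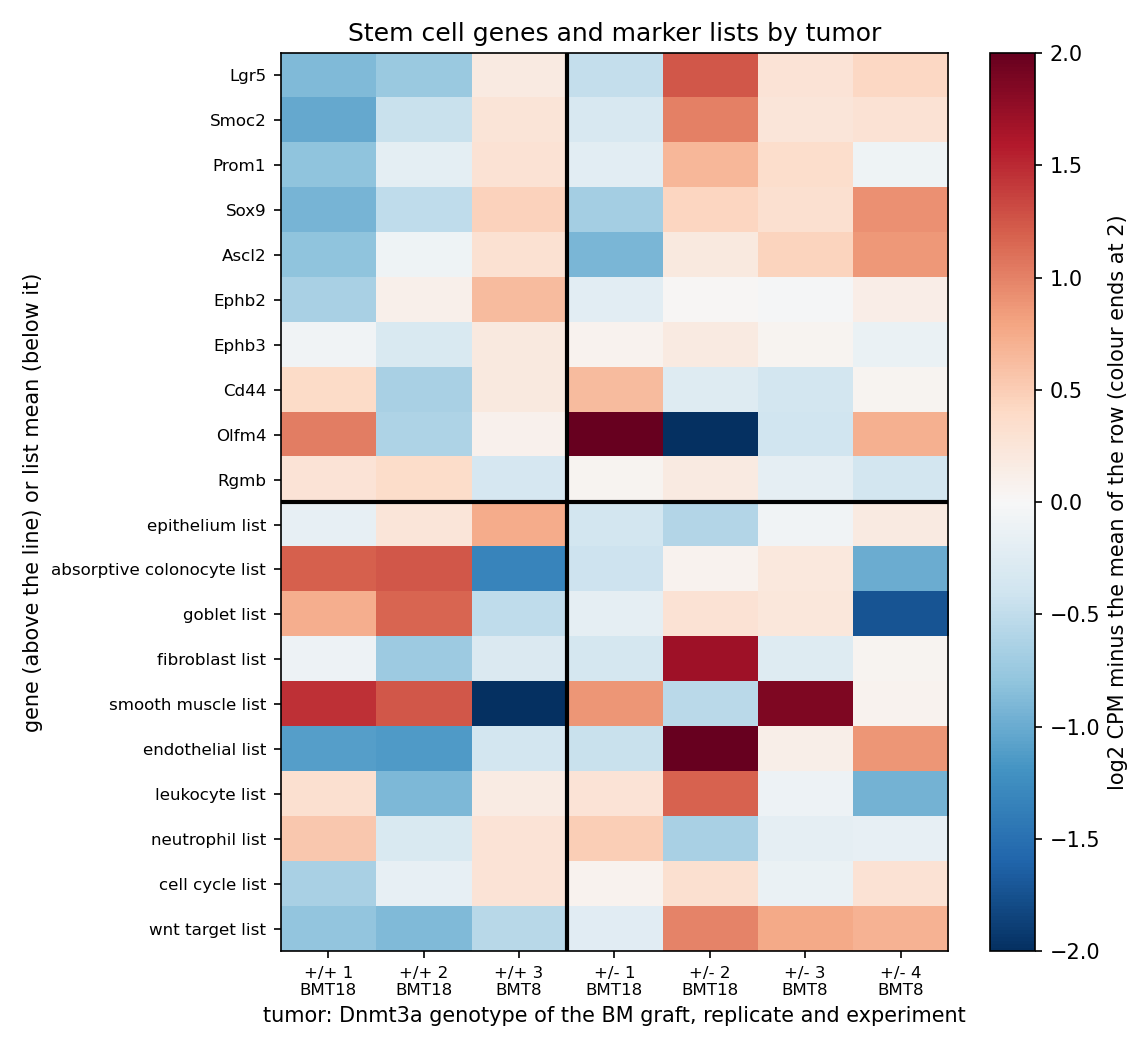
Log2 CPM of each stem cell gene (rows above the line) and mean log2 CPM of each marker list (rows below it), less the mean of the row, in the 7 tumors (columns, grouped by genotype of the graft and labelled by experiment). *Lgr5*, *Smoc2* and *Prom1* share their highest tumor, (+/-) tumor 2, with the endothelial, fibroblast, leukocyte, cell cycle and Wnt target lists. *Olfm4* and the epithelial and neutrophil lists are lowest in that tumor.

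The members were set beside the mean log2 CPM of 10 lists, 8 cell type marker lists, the Wnt targets and the cell cycle genes, in 100 comparisons. The only one past an adjusted p of 0.05 was *Lgr5* with the endothelial markers (r = 0.954, exact permutation p = 4e-04, adjusted p = 0.04), with a rho of 0.964 (exact permutation p = 0.0028, adjusted p = 0.0933), an r of 0.873 without the 2 farthest tumors and of 0.972 within experiments. *Smoc2* with the same markers gave r = 0.898 (exact permutation p = 0.0056, adjusted p = 0.187), which did not pass. All 6 endothelial markers had a log2 fold change above 0, 4 of them at an unadjusted p under 0.05 (5.83% of all genes were higher at that p), with a median of 1.73. edgeR called 0 of the 6 and DESeq2 called 3 (1.90% of all genes). The sums of the 6 markers were 16.1 to 29.9 CPM in the (+/+) and 26.8 to 139 CPM in the (+/-) tumors. The share of the *Lgr5* values that moves with vascular content was not tested. *Lgr5* with the fibroblast markers gave r = 0.793, which did not pass, and the fibroblast sum was 158 to 298 CPM in the (+/+) and 230 to 999 CPM in the (+/-) tumors.

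*Olfm4* was examined beside single neutrophil genes, a choice made after its values were seen. *Ltf*, which encodes lactoferrin, a protein of neutrophil granules and of mucosal epithelium, was at 7402, 1452 and 1893 CPM in the (+/+) tumors and at 8261, 199, 1564 and 1679 CPM in the (+/-) tumors. The tumors thus came in nearly the same order for both genes (r = 0.949, exact permutation p = 0.001, adjusted p = 0.006 over 6 genes, rho = 0.964, r = 0.747 without the 2 farthest tumors and 0.958 within experiments). *S100a9* gave r = 0.866 (exact permutation p = 0.0032, adjusted p = 0.0096). *S100a8* gave r = 0.586 (rho = 0.750, and r = 0.884 without the 2 farthest tumors), which did not pass (exact permutation test, adjusted p = 0.324). The other 3 genes tested gave r = -0.14 for *Csf3r*, 0.0044 for *Cxcr2* and -0.24 for *Retnlg*, while the granule genes *Ngp* and *Camp* were at or below 0.094 CPM in all tumors. With the mean of the whole neutrophil list, *Olfm4* gave r = 0.852 and rho = 0.929 (exact permutation test, adjusted p = 0.233 and 0.134 over 100 comparisons). That mean includes *Ltf* and *S100a9*, so it partly repeats the single-gene results. In (+/-) tumor 2, the list mean, *Ltf*, *S100a8* and *S100a9* were lowest, while *Csf3r* was at its highest (8.88 CPM) and *Cxcr2* was not low (5.58 CPM). How far *Ltf* carries the list mean was not tested.

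**Figure D4:**
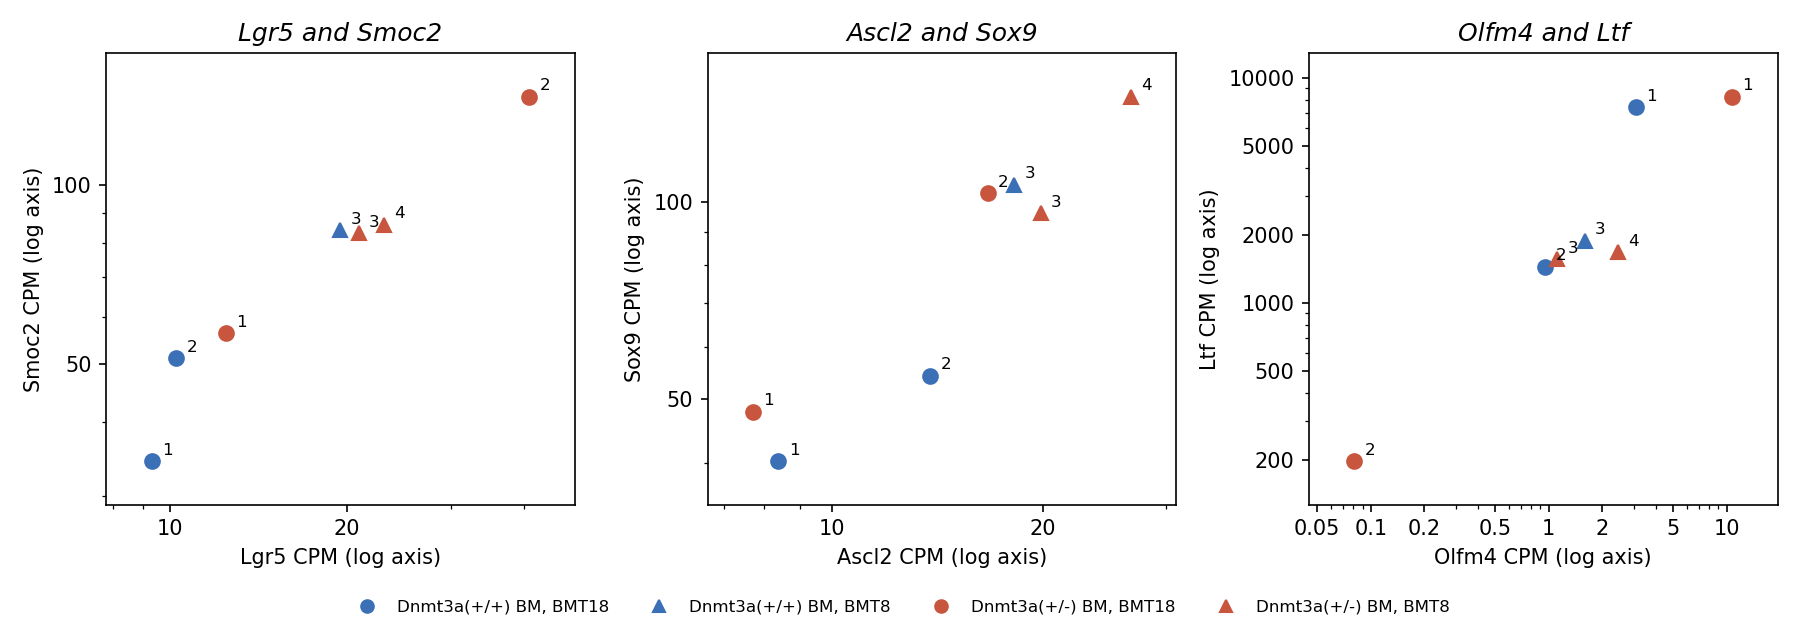
CPM of *Smoc2* against *Lgr5*, *Sox9* against *Ascl2* and *Ltf* against *Olfm4* in each of the 7 tumors, on log axes, with color for the genotype of the graft, shape for the experiment and numbers for the replicate. The points rise along a line in each panel (r = 0.974, 0.940 and 0.949).

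By rule, the 5 genes most like *Lgr5* were those with the highest Pearson's r on log2 CPM over the 7 tumors among the other 15809 genes. They were *Gpr4* (r = 0.994), a proton-sensing receptor of endothelial cells, *Scamp3* (0.992), *Nes* (0.991), an intermediate filament protein of progenitor and endothelial cells, *Jak3* (0.988), a kinase of cytokine receptors, and *Pdia4* (0.986). Among members, *Smoc2* ranked 26th by this measure, *Prom1* 632nd, *Sox9* 997th, *Ascl2* 2320th and *Olfm4* 13357th. These ranks describe 7 values per gene, with (+/-) tumor 2 at the top. *Gpr4* was near the floor, at about 0.10 to 0.35 CPM in the (+/+) and 0.17 to 1.53 CPM in the (+/-) tumors, prior count included.

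Other genes of the crypt base were read from lists written for this comparison. Of 10 other crypt base genes, 4 were higher and 1 lower with (+/-) BM at an unadjusted p under 0.05 (5.83% and 5.20% of all genes), with a median log2 fold change of 0.16, and edgeR called 0. *Tnfrsf19*, a Wnt-responsive receptor, was at 11.9, 7.57 and 6.55 CPM in the (+/+) and at 20.0, 85.2, 31.4 and 19.9 CPM in the (+/-) tumors, with no overlap and a log2 fold change of 2.17 (edgeR adjusted p = 0.361). *Msi1*, an RNA-binding protein of progenitors, was at 1.48, 0.843 and 1.44 CPM and at 2.82, 11.2, 5.40 and 3.57 CPM, also with no overlap and a log2 fold change of 2.20 (adjusted p = 0.361). In edgeR, 0.361 was the lowest adjusted p of all genes tested, so it does not rank the genes that share it. DESeq2 called these 2 of the 10 (adjusted p = 0.0074 for *Tnfrsf19* and 0.0067 for *Msi1*, 1.90% of all genes). *Znrf3* and *Rnf43*, ligases that remove Wnt receptors from the membrane, had log2 fold changes of 1.32 and 0.87. The water channel gene *Aqp4* was lower, from 87.2 to 118 CPM in the (+/+) to 40.3 to 74.2 CPM in the (+/-) tumors (log2 fold change -0.89). Reserve stem cell genes were split, 2 above 0 and 2 below of 4, with 0 at an unadjusted p under 0.05 and log2 fold changes from -0.26 (*Hopx*) to 1.36 (*Tert*).

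The 8 targets of Wnt signaling that are not members had a higher median log2 fold change, 1.42 against 0.40 for the members, a difference that was not tested. All 8 were above 0, with 7 at an unadjusted p under 0.05 (5.83% of all genes were higher at that p), the same 7 without overlap between groups (6.12% of all genes were higher without overlap), and edgeR called 0 while DESeq2 called 5 (*Lef1*, *Nkd1*, *Sp5*, *Notum* and *Axin2*; 1.90% of all genes). *Axin2*, a feedback inhibitor of the pathway, was at 60.6, 77.4 and 63.4 CPM in the (+/+) and at 86.6, 203, 169 and 134 CPM in the (+/-) tumors. Its log2 fold change was 1.14 (edgeR adjusted p = 0.361, DESeq2 adjusted p = 0.021). *Lef1*, a β-catenin partner, had the highest value of the list at 2.33 and *Ccnd1* the lowest at 0.46. *Lgr5* with the mean of these targets gave r = 0.865 (exact permutation p = 0.0185, adjusted p = 0.264). All 10 cell cycle genes were above 0, with a median of 0.19 and 1 at an unadjusted p under 0.05, *Mcm2* at 0.62, against 5.83% of all genes higher at that p, and *Birc5* was the lowest at 0.019.

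For markers of differentiated cells of the same epithelium, the log2 fold changes were below 0, but edgeR called 0 of them. All 7 absorptive colonocyte markers and all 8 goblet cell markers had log2 fold changes below 0, with medians of -0.71 and -0.92, and 1 and 3 of them were at an unadjusted p under 0.05 (5.20% of all genes were lower at that p). On mean log2 CPM the groups did not separate. (+/+) tumor 3 had the lowest mean of all tumors for the absorptive list, 4.38 against 4.71 to 5.91 in the (+/-) tumors. Its goblet mean was 6.98, below that of (+/-) tumors 1 to 3. As summed CPM the absorptive list did separate, at 1508 to 1691 in the (+/+) and 719 to 1208 in the (+/-) tumors. *Krt20* was the largest term of that sum in every tumor, at 744 to 1103 CPM in the (+/+) and 457 to 836 CPM in the (+/-) tumors. Taken singly, 0 of the 7 absorptive genes separated the groups. The goblet sums overlapped, at 1599 to 4365 and 664 to 2389 CPM. With the experiment as a covariate, *Fabp2* (0.056), *Muc2* (0.0059) and *Clca1* (0.037) were above 0. *Spink4* had the lowest p of the goblet list, with a log2 fold change of -1.13 and no overlap (edgeR adjusted p = 0.361). It was the 1 goblet gene that DESeq2 called (adjusted p = 1.6e-06). All 9 general epithelial markers were below 0 as well, with a median of -0.56 and 2 at an unadjusted p under 0.05, *Cldn3* at -0.70 and *Elf3* at -0.38. With the experiment as a covariate, *Epcam*, *Krt8*, *Krt19*, *Cldn3*, *Cldn7*, *Vil1* and *Elf3* were lower at an unadjusted p under 0.05 (edgeR, 14.7% of all genes in either direction). *Cdh1* and *Krt18* were not, and edgeR called 0% of all genes in that fit.

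**Figure D5:**
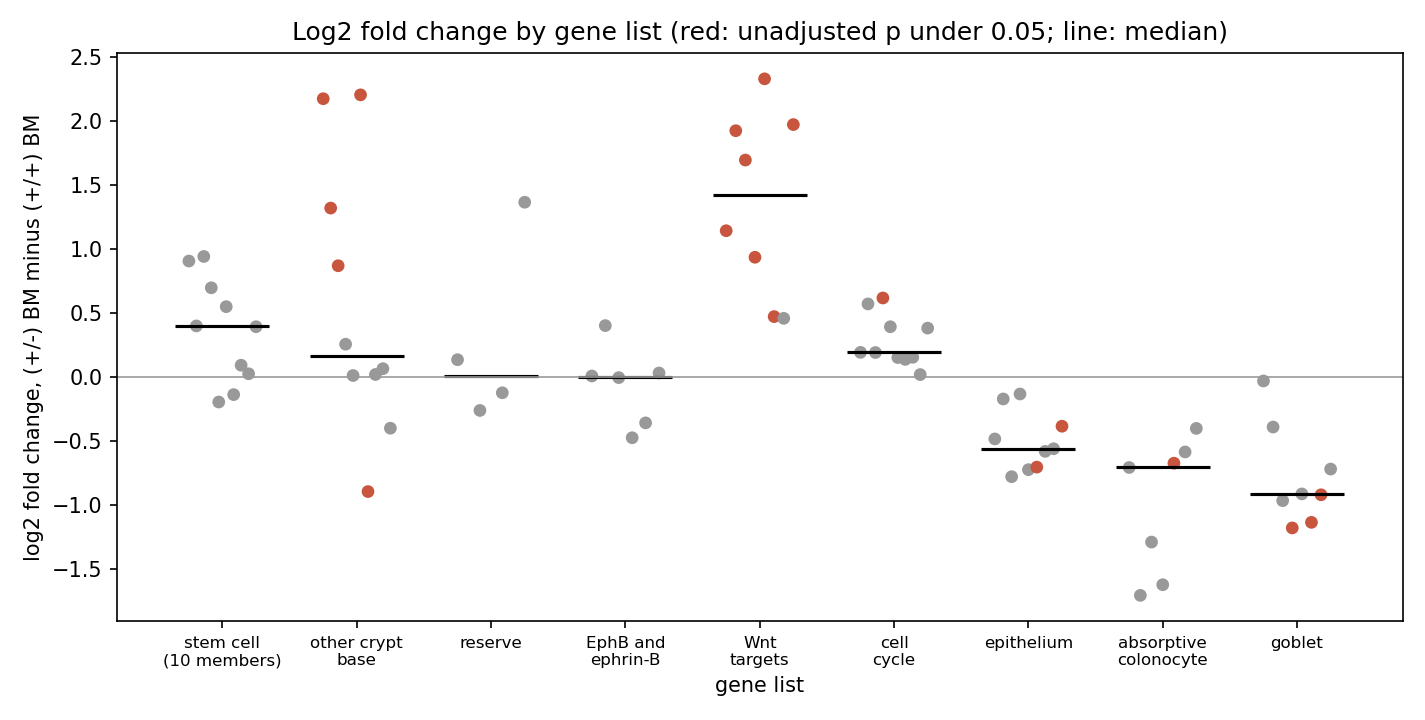
Log2 fold change of each tested gene between graft genotypes (vertical axis, (+/-) minus (+/+) BM), by gene list, with red points at an unadjusted p under 0.05 and a line at the median. The 10 stem cell genes have a median of 0.40 and no red point, the Wnt targets lie at 0.46 and above, and the 3 differentiation and epithelial lists lie below 0.

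Because all 9 epithelial markers had log2 fold changes below 0, though 8 of them overlapped between groups, the stem cell genes were also set against them, an alternative chosen after the data were seen. The sum of the 9 markers was 16090, 21350 and 33320 CPM in the (+/+) and 13200, 9868, 16070 and 21500 CPM in the (+/-) tumors, lowest where *Lgr5* was highest. The keratin genes *Krt8* (means of 10303 CPM in the (+/+) and 6009 CPM in the (+/-) tumors) and *Krt19* (5523 and 3346 CPM) were the most abundant. This scale therefore rests mainly on those keratins. The log2 fold changes of the 9 markers ran from -0.78 (*Krt8*) to -0.13 (*Krt18*), with *Cdh1* at -0.17. Per 1000 epithelial marker counts, *Lgr5* was at 0.578, 0.480 and 0.584 in the (+/+) tumors and at 0.941, 4.14, 1.30 and 1.07 in the (+/-) tumors, with no overlap. On this scale 5 of the 10 genes did not overlap and were higher with (+/-) BM (*Lgr5*, *Smoc2*, *Sox9*, *Ephb2* and *Prom1*), against 18.7% of all genes, 0 did not overlap and were lower, against 0.0949%, and 5 were at an unadjusted p under 0.05 (*Lgr5*, *Ascl2*, *Smoc2*, *Sox9* and *Prom1*), against 15.1% of all genes. This scaling moved the median of all genes to 0.62, and that of the stem cell genes to 1.13. edgeR again called 0 of the 10.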

How the data were processed

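Polyadenylated RNA of 7 whole colon tumors was sequenced. Per the labels and methods, Trimmomatic, STAR and RSEM turned reads into gene values on mm10, and the deposited values are estimated counts per gene, all whole numbers (rounding changed none), without normalization. Genes without a symbol held 0.104% of counts. Intervals and tests treat the tumors, which the labels name biological replicates, as the unit. The release of the authors' annotation is not given in the sources used here; positions and exon lengths come from GENCODE M21 on GRCm38.

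The main comparison ran on these counts in edgeR 4.0.16 under R 4.3.3 (TMM scaling, filterByExpr, quasi-likelihood test, Benjamini-Hochberg adjustment over 15810 genes, no covariate). Calls needed an adjusted p under 0.05 with a log2 fold change beyond 1 in either direction. CPM values are TMM-scaled, and log2 CPM used a prior count of 2. Further fits used the experiment, with genotype as covariate, and their interaction. Correlations used exact permutation tests over all 5040 pairings of 7 tumors. Alternatives changed the tool (DESeq2 1.42.0), the scaling, the filter or the dispersion, or used the experiment as covariate, the replicate number as block, BMT18 alone and each tumor left out. The steps were tested on simulated data in which 200 of 15810 genes were changed 4-fold. For the graft comparison, edgeR recovered 109 of the 200 with 7 false calls. DESeq2 recovered 144 with 63 false calls. In that simulation edgeR thus missed many true changes, and DESeq2 made more false calls.

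The 10 genes and the lists were chosen with earlier results of these data known. Named were the 10 genes and, in each companion gene list, up to 5 genes with the lowest unadjusted p under 0.05 and the genes with the highest and lowest log2 fold change. Marker lists of smooth muscle (6 genes tested, median log2 fold change 0.076), fibroblasts (7, 0.79), leukocytes (6, 0.36), neutrophils (6, -0.17) and enteric glia (1, 0.34) were read in the same way.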

Additional observations from a re-analysis of the deposited data

Results flagged for a closer look

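*Ephb3* moved in opposite directions in the experiments. In BMT18 both (+/-) tumors (63.2 and 68.4 CPM) lay above both (+/+) tumors (57.4 and 48.9 CPM), and in BMT8 both (+/-) tumors (62.8 and 54.8 CPM) lay below the (+/+) tumor (69.0 CPM). In BMT18 alone 49.5% of all genes did not overlap, and the BMT8 side has no replicate (+/+) tumor. The share of all genes that turn in this way was not counted. The interaction, as the graft effect in BMT8 less that in BMT18, was -0.54 on the log2 scale (standard error 0.26) and did not pass edgeR's test (adjusted p = 1.00). Among the (+/-) tumors, 1 value of *Sp5*, a Wnt target, stood far from the rest, at 13.3 CPM in tumor 1 against 43.1, 38.7 and 40.9 CPM in tumors 2 to 4. Of 41 groups of 4 tumors examined for such gaps, this was the 1 that passed, and chance alone passes about 5% of groups.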

How the results depend on the processing

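In every alternative run, 0 stem cell genes were called, and the log2 fold changes of *Lgr5*, *Smoc2*, *Ascl2*, *Sox9* and *Prom1* stayed above 0 in all 17 settings (*Lgr5* from 0.56 to 1.77). Over all genes, DESeq2 called 300 between the grafts and 462 between the experiments, where edgeR called 0 and 1.

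Of the 10 genes, those at an unadjusted p under 0.05 numbered 1 with DESeq2 (13.4% of all genes), 2 with library size only (12.5%) and 5 with epithelial scaling (15.1%), and 0 to 3 with 1 tumor left out (5.42% to 13.7%). Genes without overlap numbered 5 with epithelial scaling (all higher, as for 18.7% of all genes) and 4 in BMT18 alone (49.5%), and 0 to 3 with 1 tumor left out (13.5% to 27.2%, the latter without (+/+) tumor 3, where 3 of the 10 did not overlap). The members' median was 1.13 with epithelial scaling and ranged from 0.19 to 0.68 with 1 tumor left out. Under library size only, the median over all genes was 0.21, and that scaling turned *Rgmb* to 0.013 and *Ephb2* to 0.094, epithelial scaling turned them to 0.42 and 0.62, and BMT18 alone turned *Ephb2* to 0.15. With 1 tumor left out, *Ephb2* ranged from -0.41 to 0.21, *Ephb3* from -0.024 to 0.23, *Cd44* from -0.23 to 0.23 and *Olfm4* from -0.63 to 1.503.

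Between the experiments, with 1 tumor left out, the genes called ranged from 0 to 72 (72 without (+/-) tumor 2), the members' median from -0.21 (without (+/+) tumor 3) to 0.59, *Lgr5* from -0.30 to 0.94, *Smoc2* from -0.25 to 0.81, *Prom1* from -0.16 to 0.58, *Ephb3* from -0.18 to 0.17, *Cd44* from -0.41 to 0.13 and *Olfm4* from -1.61 to 1.70. Library size only turned *Ephb3* to -0.074. Where no other value is named, the cause was not tested.

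Replicate numbers did not pair the tumors: deviations of same-numbered tumors correlated at 0.57, 0.071 and -0.038. With the replicate block, *Olfm4* turned to -0.52, the members' median was 0.13, 0 members were at an unadjusted p under 0.05, and 1885 of all genes were, against 1744 without the block. No block was possible between experiments, since each number lies within 1 experiment. With 3 and 4 tumors the intervals were wide, and that of *Lgr5* ran from -0.12 to 1.93. Counts of *Olfm4* were as low as 4.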
